A study of Mus musculus with 6 samples.

Results

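Axon guidance ligands and their receptors were followed in Prominin1-sorted forebrain cells of mouse embryos. The members were the protein-coding rows whose symbols belong to the semaphorins of classes 3 to 7, plexins, neuropilins, ephrins, Eph receptors, Slits, Robos, netrins 1 to 5, Dcc, neogenin (Neo1) and the Unc5 family. This rule, which uses names and no measured value, found 69 of the 52636 rows of the table, of which 22027 are protein coding. They comprise 34 ligands (7 class 3 and 13 class 4 to 7 semaphorins, 8 ephrins, 3 Slits, 3 netrins) and 35 receptors (9 plexins, 2 neuropilins, 14 Eph receptors, 4 Robos, 6 netrin receptors). Counts were high enough for testing in 65 members, and the other 4 (Epha10, Ntn5, Robo4 and Plxnb3) did not pass the filter on low counts.

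The RNA came from forebrain cells of embryos at embryonic day E12.5, sorted by flow cytometry for Prominin1, a surface protein of neural progenitors, and called cortical radial glia in the labels. All embryos were Smad1wt/fl and Smad5wt/fl, and thus had a floxed beside a wild-type copy of each of these BMP signal transducers. SmadNes embryos were Nestin:Cre+/0 and their control littermates Nestin:Cre0/0, so the groups differ in the Nestin:Cre transgene, which is active in neural progenitors. Each group had 3 pools of cells, named SF3, SF4 and SF5_6 in both, on a mixed background of CD1, 129/ola and C57BL6; how many embryos made up a pool and what the names stand for is not given in the labels. Since nothing says that pools came from separate litters, p-values describe only how far pools differ, which may be partly technical.

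Guidance cues act on growing axons and migrating neurons through paired ligand and receptor families. Class 3 semaphorins are secreted and signal through neuropilins with plexins, while most semaphorins of the other classes are bound to the membrane and bind plexins directly. Ephrins are tethered ligands that signal on cell contact, with the A type anchored by a lipid and the B type spanning the membrane. Slits repel through Robo1 and Robo2, and netrins attract through Dcc or repel through Unc5 receptors. In the embryonic cortex these families also act on the radial scaffold, on migrating neurons and on progenitors.

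The 6 libraries held between 32997423 and 40744672 counts, and the detection limit, taken as 3 counts, was at most 0.0909 CPM, the count divided by the library total and multiplied by 1e6. Levels are given as CPM with TMM scaling. Both targeted genes were higher in the 3 libraries labelled SmadNes: Smad5 lay between 373 and 411 CPM there and between 287 and 299.9 CPM in controls, and Smad1 between 85.7 and 92.9 against 72.7 to 77.8 CPM. In edgeR's quasi-likelihood test Smad5 had an adjusted p of 0.965 without, and of 0.00757 with, the pool name as a block. Smad1 was called in neither fit, with an adjusted p of 0.257 with the block. Counts over the whole gene do not check a deletion of floxed exons, so every genotype direction here rests on the labels. All 14 radial glia markers were detected in all libraries (Prom1 between 106 and 132 CPM), but the markers do not bear out radial glia as the only cells. The 16 cortical neuron markers summed to between 5298 and 7654 CPM, above the 3223 to 3944 CPM of radial glia markers in every library, and the 10 intermediate progenitor markers to between 1418 and 2113 CPM. In bulk RNA, fewer cells of a type and less RNA per cell cannot be told apart.

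Compared per length of exon, Efnb1 stood highest among the guidance genes, at 66.9 ± 4.25 CPM per kilobase (SD over all 6 libraries), followed by Plxnb2 at 63.7 ± 2.61 and Efnb2 at 58.3 ± 6.08. Epha4 (54.9 ± 9.32) and Plxna2 (53.6 ± 16.3) came next. The order among these 5 is not resolved by these data, since their spreads overlap and taking the longest transcript as the length puts Efnb2 at 83.4, Plxna2 at 83.4 and Efnb1 at 70.9 CPM per kilobase. Efnb1 and Efnb2 encode membrane-spanning ephrins, Epha4 a receptor that binds ephrins of both types, Plxnb2 a receptor of class 4 semaphorins and Plxna2 a receptor of semaphorins of classes 3 and 6. Among the netrin receptors Dcc (30.9 ± 2.00) and Neo1 (30.0 ± 4.59) stood at similar levels per kilobase, and the Unc5 receptors were lower, from 0.927 for Unc5c to 7.60 for Unc5d.

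Secreted ligands were scarcer than receptors of their own system in several cases. Netrin 1 (Ntn1) stood at 1.48 ± 0.660 CPM per kilobase, against 30.9 for its receptor Dcc. The Unc5 receptors lay between 0.927 (Unc5c) and 7.60 (Unc5d), so Unc5c was not above Ntn1. The class 3 semaphorins ranged from 0.233 (Sema3b) to 5.26 (Sema3c) CPM per kilobase, while the neuropilins stood at 12.9 ± 0.938 (Nrp2) and 11.4 ± 4.27 (Nrp1). Slit1 (16.4 ± 1.48) and Robo2 (14.4 ± 2.64) were the highest of the Slits and Robos, so Slit1 was not scarcer by exon length. By the longest transcript Slit1 stood at 17.2 and Robo2 at 28.4 CPM per kilobase. Ranking with the longest transcript gave a Spearman coefficient of 0.975 with the order by exon length over the 69 genes. The top 10 by both lengths shared 8 genes. The level per kilobase itself moved by more than 1.5 times for several of the genes chosen here by rule. These were Plxna2, Epha3, Epha5, Nrp1, Nrp2, Robo2, Slit2, Sema3f, Sema6d and Unc5c.

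**Figure D1:**
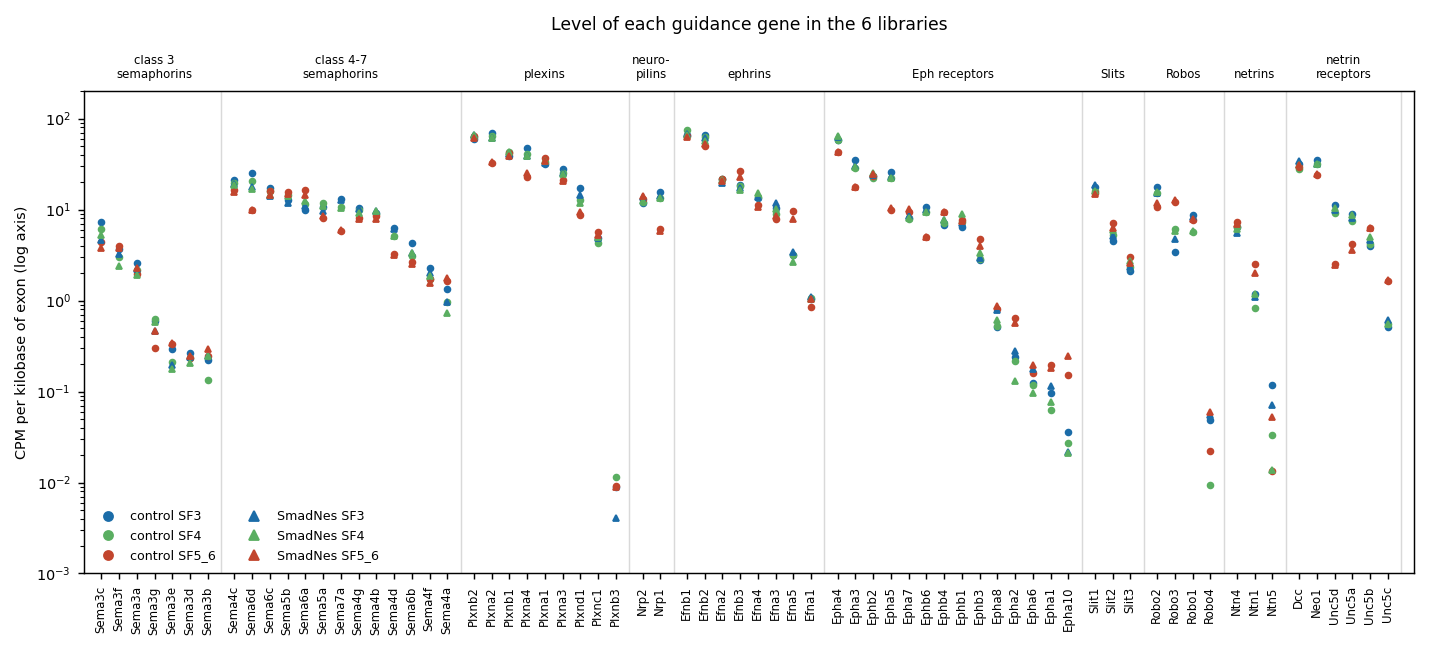
Level of each guidance gene in CPM per kilobase of exon (log axis), grouped by family and ordered by mean within each; circles are control and triangles SmadNes libraries, coloured by pool name. Efnb1, Plxnb2 and Efnb2 lie at the top, and symbols of 1 colour fall together for many genes; SmadNes SF4 is at 0 for Robo4 and Plxnb3 and cannot be drawn there.

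The design compares libraries with and without Nestin:Cre. No guidance gene passed the test between the genotypes: edgeR's quasi-likelihood test called 0 of 65 tested members at an adjusted p below 0.05, against a background of 0.0% of all 16869 genes tested, and the smallest adjusted p of a member was 1.0. At an unadjusted p below 0.05 there was 1 member by edgeR, Sema6c, beside 1.05% of all genes, 1 by limma-voom and 2 by DESeq2, with 0 called by either other tool. With the pool name as a block, 12 of 65 members lay below that unadjusted p, beside 6.23% of all genes, and 0 were called, the smallest adjusted p being 0.397. The smallest unadjusted p with the block, by edgeR, belonged to Sema6c (0.00155), Sema3c (0.00181), Sema6d (0.00399) and Efnb3 (0.00604), all lower in SmadNes. Others of the 12, such as Ephb2 (0.0212), were higher. Efnb3 was lower in SmadNes in every pair, with a log2 difference of -0.16 with the block (SE 0.044). The fit without the block counts differences between pools as spread and did not call Smad5 either. Its 0 calls therefore do not show that the genotypes are alike. Standard errors of genotype differences given below are from that fit unless the block is named, and so include differences between pools. The median log2 difference of the tested members was -0.03, and its median size 0.08, beside -0.0004 and 0.06 over all genes.

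Among the ligands, 25 of 33 tested had a negative SmadNes minus control difference and 8 a positive one, while receptors were split into 15 and 17. Over all 16869 genes tested, 8466 were negative and 8403 positive. The class 4 to 7 semaphorins were negative in 12 of 13 cases, with a median log2 difference of -0.07, and the class 3 semaphorins in 6 of 7. These counts carry no test, and each of the single differences failed the adjusted threshold.

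Sema6c, a membrane-bound semaphorin (ENSMUSG00000038777.19, GRCm38 chromosome 3, 95160457 to 95174024), had the smallest p of the family. It stood at 103, 94.3 and 96.1 CPM in control SF3, SF4 and SF5_6, and at 84.5, 85.1 and 87.0 CPM in the SmadNes pools of these names. All 3 SmadNes pools lay below all 3 controls, with means of 97.8 ± 4.59 and 85.6 ± 1.30 CPM (SD, n = 3 each) and a log2 difference of -0.19 (SE 0.050; edgeR unadjusted p = 0.0072, adjusted p = 1.0). The ephrin Efna2 was the other tested member whose SmadNes pools all lay below the controls. Its control values were 46.6, 46.0 and 46.3 CPM and its SmadNes values 42.0, 45.3 and 43.6 CPM, a log2 difference of -0.09 (SE 0.049), so the nearest pools were less than 1 CPM apart.

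In the other direction, Ephb2 and Sema3b were higher in all 3 SmadNes pools than in any control. Ephb2, a receptor of B-type ephrins, stood at 293, 278 and 297 CPM in controls and at 306, 319 and 311 CPM in SmadNes, a log2 difference of 0.11 (SE 0.048). Sema3b, a secreted semaphorin near the lower end of the levels, stood at 1.07, 0.645 and 1.17 CPM in controls and 1.18, 1.18 and 1.41 CPM in SmadNes. Without overlap, 2 of 65 members were thus higher, beside 2.39% of all genes, and 2 were lower, beside 2.38% of all genes, so these counts are close to the background.

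Sema3c and Sema6d had lower SmadNes values in 3 of 3 pairs of 1 pool name, with ranges that overlapped between the genotypes. They were among 13 of 65 tested members lower in all 3 pairs, beside 2412 of all 16869 genes tested. Sema3c, a secreted ligand of neuropilins and Plxnd1 (chromosome 5, 17574281 to 17730268), stood at 52.4, 43.4 and 31.7 CPM in control SF3, SF4 and SF5_6, and at 33.5, 37.4 and 26.9 CPM in SmadNes. Its log2 difference was -0.38 (SE 0.205). Sema6d, a transmembrane ligand of A-type plexins (chromosome 2, 124089969 to 124667770), stood at 270.1, 219 and 106 CPM in controls and at 186, 176 and 103 CPM in SmadNes, a log2 difference of -0.35 (SE 0.376). In both genes the gap was widest in the SF3 pair, at -0.65 and -0.54 on the log2 scale, and for Sema6d it was -0.03 in the SF5_6 pair.

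These were the 2 members that edgeR called in any fit. With the pool name as a block and the SF5_6 pair left out, Sema6d was lower in SmadNes by a log2 difference of -0.43 (SE 0.058, edgeR adjusted p = 0.00255). Sema3c was lower by -0.44 (SE 0.088, adjusted p = 0.0467), so 2 of 65 members were called, beside 0.362% of all genes. That fit kept only the SF3 and SF4 pairs, which leaves little to estimate the spread from. With the SF3 or the SF4 pair left out instead, edgeR called 0 members, with smallest adjusted p of 0.675 and 0.0959. With all 3 pairs and the block, Sema6d had a log2 difference of -0.30 (SE 0.078, edgeR adjusted p = 0.458). Sema3c had -0.37 (SE 0.083, adjusted p = 0.397). The summed neuron markers stood at 7654 CPM in control and 6799 CPM in SmadNes in the SF3 pair, and at 6517 and 6583 CPM in the SF4 pair, with negative genotype differences in 11 of 16. The 16 ventral telencephalon markers were negative in 15 of 16 cases and summed to 169, 114 and 389.8 CPM in controls and 109.6, 107 and 288 CPM in SmadNes, with Lhx8 at 0 in control SF4, SmadNes SF3 and SmadNes SF4. All 8 Cajal-Retzius markers had positive differences, with sums of 1265, 1238 and 1201 CPM in controls and 1670, 1527 and 1284 CPM in SmadNes. All 9 tested erythroid markers had negative ones, with sums of 379, 116 and 1126 CPM in controls and 359, 123 and 666 CPM in SmadNes. All 12 mesenchymal markers had positive ones, though the sum was lower in SmadNes in the SF4 pair (472 and 299 CPM). The part of these cells in the semaphorin values was not tested.

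Nrp2, Dcc and Ntn4 were the remaining genes with the smallest p without the block. Nrp2, a neuropilin that binds Sema3f, stood at 139.8, 143 and 157 CPM in controls and 163, 149 and 168 CPM in SmadNes. Its log2 difference was 0.12 (SE 0.069). Dcc stood at 417, 373 and 391 CPM in controls and 451, 403 and 403 CPM in SmadNes, 0.09 (SE 0.070) on the log2 scale. Ntn4, a laminin-binding netrin, stood at 24.2, 24.3 and 27.4 CPM in controls and 20.6, 22.7 and 26.0 CPM in SmadNes, -0.13 (SE 0.105) on that scale. All 3 kept 1 sign in every pair, and in all 3 the genotype ranges overlapped. Of the 65 tested members 9 were higher and 13 lower in all 3 pairs, beside 2329 and 2412 of all 16869 genes tested.

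**Figure D2:**
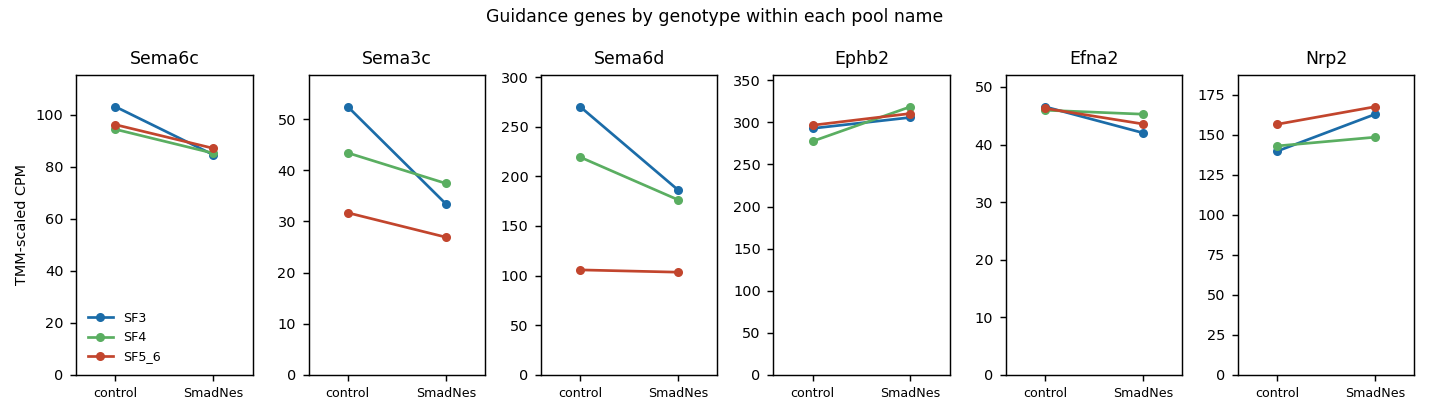
TMM-scaled CPM of 6 guidance genes in control and SmadNes libraries, with a line joining the 2 libraries of each pool name. Sema6c, Sema3c and Sema6d are lower in SmadNes in all 3 pairs, and for Sema6d the distance between pool names, from 106 to 270.1 CPM in controls, exceeds that between genotypes.

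The pool name separated the guidance genes far more than the genotype did. In a fit with genotype as covariate, edgeR called 44 of 65 tested members (67.7%) for differences among SF3, SF4 and SF5_6, beside 28.8% of all genes. The share of members was not tested against that of all genes, and the members were chosen with earlier results of these data known. The members had more counts than most genes (a median of 1818 per library against 628), whose part in this share was not tested, and their median log2 range between pool names was 0.51 against 0.25 over all genes. In 17 called members both SF5_6 libraries lay above the other 4 (12.2% of all genes were called with that pattern), and in 25 both lay below them (12.1% of all genes). DESeq2 called 40 members and limma-voom 44, and 36 of the 44 were called in every fit that left out 1 library or changed tool, filter or covariate.

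Marker genes of other cells differed along with the pool name. The counts called below stand beside 28.8% of all genes called, 12.2% with both SF5_6 libraries highest and 12.1% with both lowest. Of the 16 cortical neuron markers 14 were called, 10 with both SF5_6 libraries lowest. The neuron markers summed to 5380 and 5298 CPM in SF5_6 against 6517 to 7654 CPM elsewhere. Intermediate progenitor markers summed to 1510 and 1418 CPM in SF5_6 against 1948 to 2113 CPM. The summed markers of radial glia were higher in SF5_6 (3826 and 3944 against 3223 to 3742 CPM), with 11 of 14 called and 7 highest there. Fabp7, Slc1a3 and Notch1 were not higher, at -0.03, -0.06 and -0.02 on the log2 scale against SF3. Also higher in SF5_6 were the markers of ventral telencephalon (389.8 and 288 against 107 to 169 CPM, 14 of 16 called). So were those of cortical hem and choroid plexus (760.2 and 544 against 357 to 449 CPM, 11 of 13 called with 9 highest in SF5_6). The same held for mesenchyme and meninges (1084 and 1356 against 299 to 924 CPM, 11 of 12 called). Erythroid markers were called in 9 of 9 cases, 7 of them highest in SF5_6, with sums of 1126 and 666 CPM there against 116 to 379 CPM. All 8 Cajal-Retzius markers were called, 7 of them highest in SF5_6. Reln was lowest there, at 567 and 669 CPM against 799 to 1170 CPM elsewhere. The sums of the 8, of which Reln made the largest part, overlapped (1201 and 1284 against 1238 to 1670 CPM). Endothelial markers were low, at 18.2 to 24.6 CPM summed over 10 genes. No marker of these lists was at 0 in all libraries, and the part of these cells in the differences below was not tested.

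**Figure D3:**
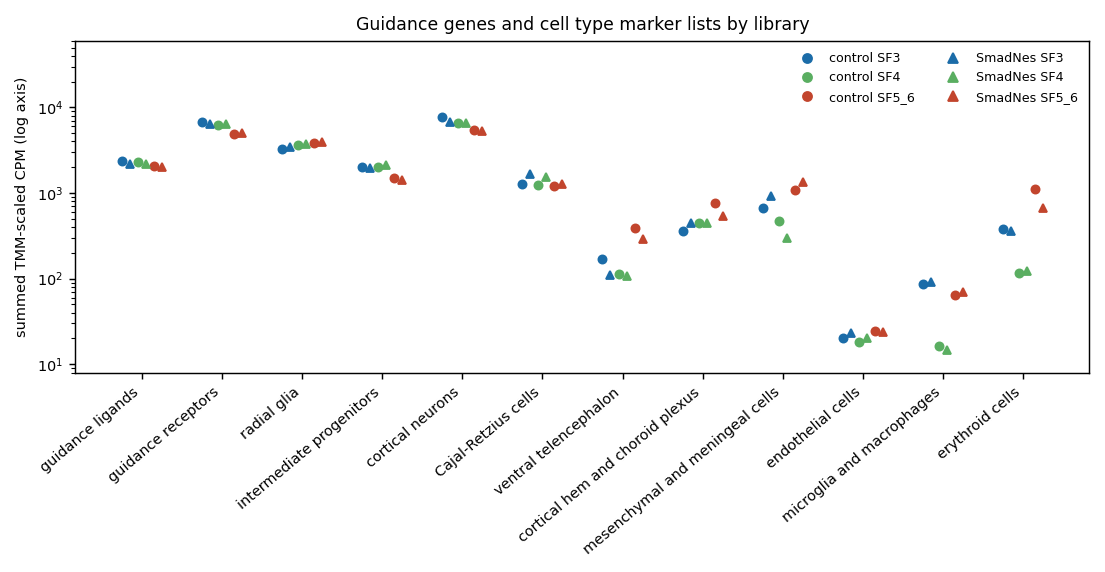
Summed TMM-scaled CPM of the guidance ligands, the guidance receptors and 10 lists of cell type markers in each library (log axis). In the SF5_6 libraries the receptors, intermediate progenitor and neuron markers are lowest, and ventral telencephalon, hem, and mesenchymal markers highest.

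In the semaphorin system most called genes were lower in SF5_6. Of the class 4 to 7 semaphorins 10 of 13 were called, 7 lower and 3 higher in SF5_6, and 4 of 8 tested plexins were called, all lower. Beside these stood 28.8% of all genes called, 12.1% lower and 12.2% higher in SF5_6. Sema6d stood at 270.1 and 186 CPM in SF3, 219 and 176 CPM in SF4, and 106 and 103 CPM in SF5_6 (control, then SmadNes), 2.15-fold lower in SF5_6 than in SF3. Sema7a, a lipid-anchored semaphorin, was 2.20-fold lower and Sema4d, a ligand of Plxnb1, 1.95-fold lower. Sema4c, a ligand of Plxnb2, differed less, from 96.7 and 88.0 CPM in SF3 to 74.7 and 72.4 CPM in SF5_6. The 3 that were higher in SF5_6 were Sema6a (1.47-fold), Sema4a (1.49-fold) and Sema5b (1.25-fold). The call of Sema6b, lower in SF5_6, was lost by DESeq2 (adjusted p = 0.0526) and without control SF3 (0.0748) or control SF5_6 (0.0607).

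Among the receptors of semaphorins, Nrp1 and Nrp2 differed from each other. Nrp1, a co-receptor of class 3 semaphorins and of vascular endothelial growth factor (chromosome 8, 128358604 to 128503363), stood at 151 and 138 CPM in SF3, 131 and 131 CPM in SF4, and 59.5 and 57.0 CPM in SF5_6. The SF5_6 level was 2.48-fold below SF3, a log2 difference of -1.31 (SE 0.050; adjusted p = 4.18e-06). Nrp2 lay between 139.8 and 168 CPM in all libraries and was not called (adjusted p = 0.108), though it was without SmadNes SF3 (0.038). Plxna2 stood at 1194 and 1054 CPM in SF3, 1101 and 1044 CPM in SF4, and 553 and 580.2 CPM in SF5_6, a log2 difference of -0.98 (SE 0.059). Plxna4 (1.80-fold), Plxnd1 (1.75-fold) and Plxna3 (1.27-fold) were also lower in SF5_6, while Plxnb2 ranged from 464 to 517 CPM with a log2 difference of 0.01 (SE 0.054; adjusted p = 0.762).

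Of the class 3 semaphorins 3 of 7 were called for the pool name (42.9%, beside 28.8% of all genes), 2 of them higher and 1 lower in SF5_6. Sema3c was lower in SF5_6 (log2 difference -0.53, SE 0.103), and its call was lost without control SF5_6 (adjusted p = 0.0572) and without the genotype term (0.0974). Sema3f, the secreted ligand of Nrp2, was lowest in SF4, at 15.6 and 12.6 CPM against 16.9 to 20.8 CPM elsewhere. Its call was lost without SmadNes SF4 (adjusted p = 0.0598). Sema3e, a ligand of Plxnd1 at 1.64 to 3.15 CPM, was called at an adjusted p of 0.0492 and lost that call by DESeq2 (0.347) and in 4 of 6 fits without 1 library, those without either SF4 or either SF5_6 library.

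In the ephrin system the A-type ligand Efna5 and its receptors Epha5 and Epha3 differed between pools in opposite directions. Other genes of the A type did not follow this split. The receptors Epha7 and Epha2 were higher in SF5_6 than in SF3 (log2 differences 0.23 and 1.20), and the ligands Efna3 and Efna4 lower (-0.41 and -0.30). Epha5 (ENSMUSG00000029245.16, chromosome 5, 84054761 to 84417382) stood at 438 and 385 CPM in SF3, 370.3 and 376 CPM in SF4, and 167 and 175 CPM in SF5_6. The SF5_6 libraries of both genotypes held 2.40-fold less than SF3, a log2 difference of -1.27 (SE 0.062; adjusted p = 1.05e-05). Efna5 (ENSMUSG00000048915.12, chromosome 17, 62604184 to 62881317) stood at 12.7 and 13.8 CPM in SF3, 12.9 and 10.7 CPM in SF4, and 39.3 and 31.9 CPM in SF5_6. It was 2.67-fold higher in SF5_6 than in SF3 (log2 difference 1.42, SE 0.105; adjusted p = 2.43e-05), with no overlap. Epha3 stood at 302 and 261 CPM in SF3, 249.8 and 253 CPM in SF4, and 156 and 155 CPM in SF5_6, a log2 difference of -0.86 (SE 0.059).

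The 250 bases before the RefSeq start of Efna5 and Epha5 are shown because this ligand and receptor had some of the widest differences in opposite directions and their upstream DNA can be set side by side. Both run 5′ to 3′ on the minus strand of GRCm38.p6, at chr17:62881318-62881567 and chr5:84417383-84417632. Capitals mark GTCT and its reverse complement AGAC, the short element known to be bound by Smad proteins.
Efna5: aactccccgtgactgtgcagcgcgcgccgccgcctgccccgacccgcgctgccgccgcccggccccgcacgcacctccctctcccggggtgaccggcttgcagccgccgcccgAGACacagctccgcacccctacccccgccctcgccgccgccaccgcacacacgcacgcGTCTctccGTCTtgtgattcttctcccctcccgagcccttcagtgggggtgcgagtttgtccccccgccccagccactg
Epha5: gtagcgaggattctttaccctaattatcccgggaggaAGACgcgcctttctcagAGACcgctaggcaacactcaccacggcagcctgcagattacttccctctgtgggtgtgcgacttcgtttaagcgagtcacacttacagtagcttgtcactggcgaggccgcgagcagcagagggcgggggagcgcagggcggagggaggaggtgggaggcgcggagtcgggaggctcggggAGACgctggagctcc
Each held 3 matches to GTCT or AGAC and none to GGCGCC, a GC-rich element known from BMP-responsive Smads, or to CANNTG, the E-box. A GTCT match is common, present in 82.9% of 32851 RefSeq promoter windows of 250 bases, read on both strands, while GGCGCC was in 9.59% and CANNTG in 66.2%. Of 75 windows of the 59 guidance genes with a RefSeq promoter, 84.0% held GTCT, 21.3% GGCGCC and 48.0% CANNTG. Some genes have several windows, and no share was tested. A match is a run of letters and not a measured site.

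Of the 13 tested Eph receptors 9 were called for the pool name (69.2%, beside 28.8% of all genes). In SF5_6 5 were higher and 4 lower, beside 12.2% and 12.1% of all genes. Epha4 stood at 464 and 506 CPM in SF3, 474 and 513 CPM in SF4, and 350.4 and 346 CPM in SF5_6, a log2 difference of -0.47 (SE 0.048). Ephb6, a family member without kinase activity, was 2.06-fold lower. Epha2 was scarce, at 1.13 and 1.32 CPM in SF3, 1.02 and 0.607 CPM in SF4, and 3.00 and 2.68 CPM in SF5_6, and was 2.30-fold higher in SF5_6 than in SF3 (SE 0.255 on the log2 scale). Ephb3 (1.53-fold), Ephb4 (1.32-fold) and Epha7 (1.17-fold), receptors of B-type and A-type ephrins, were also higher. Epha1 stood under 1 CPM in all libraries, and its call (adjusted p = 0.0419) was lost without any single library, up to 0.281 without control SF5_6, and by DESeq2 (0.559). Ephb2 ranged from 278 to 319 CPM with an adjusted p of 0.881.

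Ephrins had 5 of 8 genes called (62.5%, beside 28.8% of all genes), 2 higher and 3 lower in SF5_6. Besides Efna5, Efnb3 was higher, at 85.6 and 72.3 CPM in SF5_6 against 52.9 to 59.8 CPM in the other 4 libraries. Efnb2 stood at 454 and 416 CPM in SF3, 431 and 393 CPM in SF4, and 346 and 361 CPM in SF5_6, and its call was lost without control SF5_6 (adjusted p = 0.094). Efna3 was 1.33-fold and Efna4 1.23-fold lower in SF5_6 than in SF3. The call of Efna4 was lost by DESeq2 (0.0515) and without SmadNes SF4 (0.0526) or SmadNes SF5_6 (0.0781). Efnb1, at 214 to 257 CPM, was not called (adjusted p = 0.104), though it was without SmadNes SF3 (0.0479) and with all genes tested (0.00919). Efna2, at 42.0 to 46.6 CPM, was not called in any fit.

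**Figure D4:**
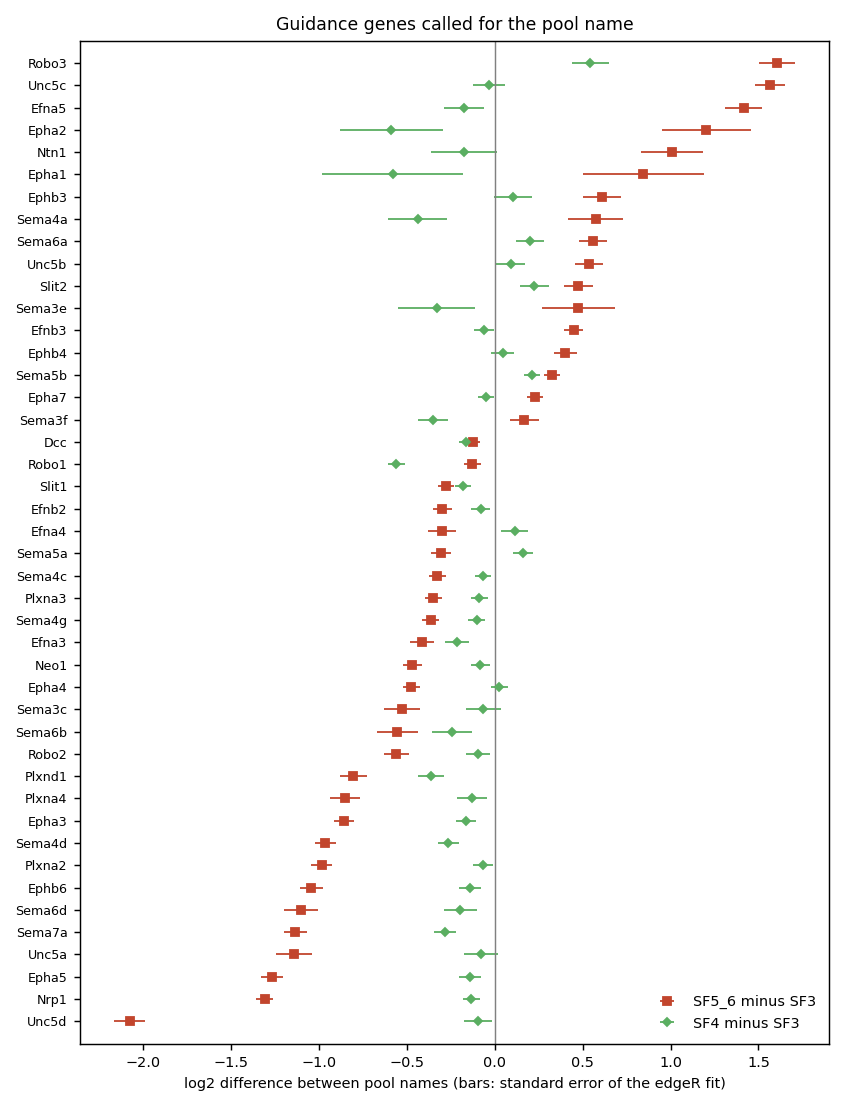
Log2 differences of the 44 guidance genes called for the pool name, SF5_6 minus SF3 (squares) and SF4 minus SF3 (diamonds), with bars for the standard error of the edgeR fit. Differences run from -2.08 for Unc5d to 1.61 for Robo3 in SF5_6, and most SF4 values lie closer to 0.

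The netrin receptors held the largest difference of the 44. Unc5d, known from migrating cortical neurons (chromosome 8, 28646717 to 29219636), stood at 103 and 90.8 CPM in SF3, 84.2 and 97.0 CPM in SF4, and 23.2 and 22.7 CPM in SF5_6. It was 4.22-fold lower in SF5_6 than in SF3, a log2 difference of -2.08 (SE 0.088; adjusted p = 5.47e-06). Its relative Unc5c (chromosome 3, 141465216 to 141834924) went the other way, at 9.92 and 11.7 CPM in SF3, 10.5 and 10.6 CPM in SF4, and 31.5 and 32.4 CPM in SF5_6. Unc5c was 2.96-fold higher in SF5_6 (log2 difference 1.56, SE 0.085; adjusted p = 8.55e-06). So within this 1 family of repulsive receptors Unc5a (2.20-fold) and Unc5d were lower in SF5_6, and Unc5b (1.45-fold) and Unc5c higher.

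The other netrin genes differed less, apart from the ligand Ntn1. Ntn1 stood at 7.40 and 6.84 CPM in SF3, 5.23 and 7.46 CPM in SF4, and 16.0 and 12.7 CPM in SF5_6, 2.01-fold higher in SF5_6 than in SF3 (SE 0.177 on the log2 scale). Neo1, which also binds repulsive guidance molecules, stood at 309 and 280.0 CPM in SF3, 276 and 279.8 CPM in SF4, and 208 and 217 CPM in SF5_6, a log2 difference of -0.47 (SE 0.054). Dcc differed by -0.13 (SE 0.042) and was called at an adjusted p of 0.0381. That call was lost without any 1 of the 6 libraries, with adjusted p between 0.0552 and 0.160, and without the genotype term (0.113). Ntn4 was not called (adjusted p = 0.0556), and was with the SF4 pair left out (0.0409).

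In the Slit and Robo system all 3 tested Robos and 2 of 3 Slits were called, beside 28.8% of all genes. Robo3, which lets commissural axons cross the midline of the hindbrain and spinal cord (chromosome 9, 37415669 to 37433246), stood at 23.6 and 32.3 CPM in SF3, 41.5 and 39.5 CPM in SF4, and 83.1 and 86.5 CPM in SF5_6. It was 3.04-fold higher in SF5_6 than in SF3 (log2 difference 1.61, SE 0.104; adjusted p = 3.25e-05), and the 3 names did not overlap. Robo2 stood at 299.9 and 261 CPM in SF3, 261 and 264 CPM in SF4, and 182 and 198 CPM in SF5_6, a log2 difference of -0.56 (SE 0.070). Robo1 was set apart in SF4 instead, at 94.4 and 96.0 CPM against 126 to 143 CPM in the other libraries. Slit2 was higher in SF5_6, at 182 and 161 CPM against 115 to 154 CPM, and Slit1 lower, at 90.3 and 87.7 CPM against 94.5 to 109.7 CPM.

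**Figure D5:**
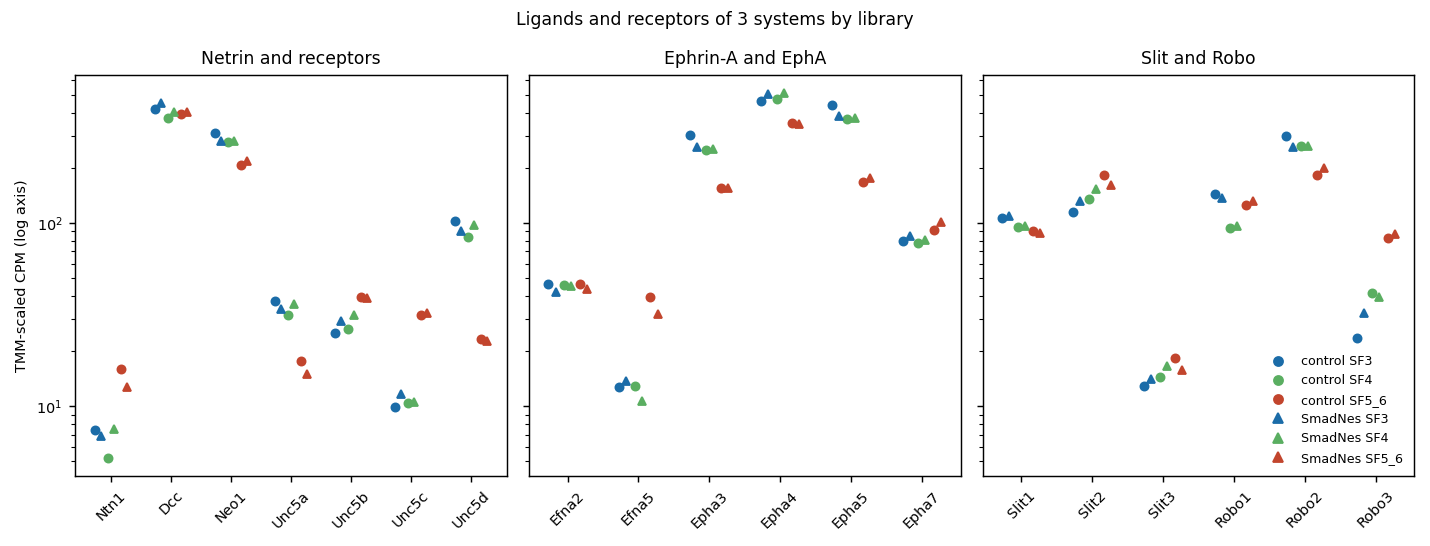
TMM-scaled CPM (log axis) of netrins, A-type ephrins and Slits with their receptors in each library; circles are control and triangles SmadNes libraries, coloured by pool name. Unc5d and Epha5 are lowest and Unc5c, Efna5 and Robo3 highest in the 2 SF5_6 libraries, and Robo1 is lowest in SF4.

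Without the SF5_6 pair, SF4 and SF3 differed in 10 of 65 members, beside 6.08% of all genes. Robo1 had the largest of these differences, -0.56 on the log2 scale in SF4 against SF3 (adjusted p = 7.39e-06), followed in size by Robo3 (0.55; adjusted p = 0.00263), Plxnd1 (-0.36; 0.000763) and Sema3f (-0.35; 0.0326). Slit2, Sema5b, Ephb1 and Sema6a were higher and Sema7a and Sema4d lower in SF4, by 0.20 to 0.28 in size. SF4 was also the name with the fewest counts of microglia and macrophage markers, 16.5 and 14.5 CPM summed over 9 genes against 65.1 to 92.1 CPM elsewhere. Mesenchymal markers were also lowest there, at 472 and 299 CPM against 663 to 1356 CPM, and so were erythroid markers, at 116 and 123 CPM against 359 to 1126 CPM. Their part in the SF4 values was not tested.

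Genes that act downstream of or beside these receptors were followed as a list. A list of 74 genes of guidance signalling and co-receptors, all of them tested, had 0 called between the genotypes by edgeR. At an unadjusted p below 0.05 there were 0 without the block, beside 1.05% of all genes. With the block there were 9, beside 6.23% of all genes. Without the block the smallest p belonged to Limk2, a kinase that phosphorylates cofilin, with a log2 difference of -0.13 (SE 0.054). Next were the chemokine receptor Cxcr4 (0.23, SE 0.119) and the exchange factor Vav2 (-0.10, SE 0.053). For the pool name 33 of 74 were called, beside 28.8% of all genes. Both SF5_6 libraries were lowest in 21, beside 12.1% of all genes, and highest in 8, close to the 12.2% of all genes. Wide ranges among the 33 called genes were those of the exchange factor Vav3 and of Dscam, an adhesion receptor that also binds netrin 1. Vav3 was higher in SF5_6 (7.93 and 9.67 CPM against 2.25 to 4.05 CPM). Dscam stood at 58.7 and 54.2 CPM in SF3, 45.2 and 48.9 CPM in SF4, and 20.9 and 23.9 CPM in SF5_6, a log2 difference of -1.33 (SE 0.080; adjusted p = 2.49e-05).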

How the data were processed

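Libraries of 6 pools were used, 3 per genotype. The authors aligned stranded paired-end reads with STAR 2.5.3a against GRCm38, and RSEM 1.3.0 estimated counts on GENCODE M15, per the labels' protocols; the submitters' processing notes also name DESeq2 1.18, with no role stated. The deposited table holds the authors' expected counts per gene as whole numbers, unscaled, and the sources used here do not say how they became whole. Total counts lay between 32997423 and 40744672, and floors of 3 counts cover counting error only.

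The counts were tested with edgeR 4.0.16 in R 4.3.3 (quasi-likelihood F test, TMM scaling, filterByExpr by genotype), which left 16869 genes; p-values were adjusted by Benjamini-Hochberg over all of them and called below 0.05. The genotype fit had no block. The pool-name test covered both SF-name terms beside genotype. Standard errors were derived from the F statistic. Levels per kilobase used the union of exons of GENCODE M21, to which all 69 members matched, with GRCm38 positions from the same annotation. RefSeq promoter windows were matched by symbol for 59 members; Dcc, Efnb3, Ntn1, Plxna1, Plxna4, Sema3b, Sema3f, Sema6a, Slit1 and Unc5d had no entry. The within-pair log2 differences used CPM plus a pseudocount of 0.1.

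Whether the SF names pair the samples was checked: deviations from the group means correlated at 0.493, 0.697 and 0.724 between libraries of 1 name and at most at -0.058 between names. The labels' protocols also speak of pairs. The biological coefficient of variation was 0.198 without and 0.0556 with the name as block.

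Alternatives were the block, DESeq2 1.42.0, limma-voom (limma 3.58.1), no filter on low counts, no genotype term, each library or pair left out, and the longest transcript as length. Leaving out pool names from the pool-name test was chosen after seeing the data. The members and lists were chosen with earlier results of these data known. A rule chose 29 members for full description: the 2 highest of each family by level, the 8 with the smallest genotype p, the 8 with the widest called pool range at a mean of at least 1 CPM, and any called for genotype in any fit. Their values are given in every library, except that Efnb1, Plxnb2, Sema4c, Sema3f, Slit1 and Slit2 have ranges or only part of the values. Further genes were picked for mention once their values had been looked at. The fits were also run on simulated counts. Their genotype comparison held no differences between pool names and less spread than the fit without the block found here. That run therefore does not measure the power of the genotype fit in these data.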

Additional observations from a re-analysis of the deposited data

How the results depend on the processing

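The fit without the block counts the difference between the 3 pools of a genotype as spread. The count of members called between genotypes ranged from 0 to 2 when libraries or pairs were left out, and was 0 with the replicate block in edgeR, in DESeq2 with or without the block, in limma-voom and without the filter. Over all genes it was 0 without and 4 with the replicate block, 7 in DESeq2, 13 in DESeq2 with the block, 1 in limma-voom, and 0 to 61 with libraries or pairs left out. The block changed no member's call with all pools kept.

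For the pool name, 40 to 46 members were called with 1 library left out, 53 without the filter, 41 without the genotype term, and 41 and 43 without the SF3 and SF4 pairs. Without the SF5_6 pair the count was 10 members and 1025 of all genes, and DESeq2 called 3161 of all genes in place of 4864; the cause of the difference between tools was not tested. No member called for the pool name changed the sign of its SF5_6 minus SF3 difference with another tool, filter or design or with 1 library left out. Signs changed for uncalled members with differences near 0: with 1 library left out the range was -0.025 to 0.069 for Efna2, -0.015 to 0.056 for Ephb2, -0.084 to 0.098 for Plxnb2, -0.011 to 0.386 for Sema3b and -0.099 to 0.041 for Sema6c, and Plxnb2 stood at -0.012 without the filter. The 4 genes below the filter, at most 1.79 CPM, were not tested.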

Other observations

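The 4 guidance genes with too few counts for a test differed in where those counts lay. Epha10, a receptor of the EphA type, had 9, 8 and 37 counts in control SF3, SF4 and SF5_6 and 6, 5 and 62 counts in the SmadNes pools of these names, which is at most 1.79 CPM. Both SF5_6 libraries thus held more Epha10 than the other 4, as they did for Epha2 and Epha1. Robo4, a receptor of endothelial cells, stood between 0 and 0.317 CPM, Ntn5 between 0.0294 and 0.260 CPM, and Plxnb3 between 0 and 0.0744 CPM.

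Summed over all members, receptors reached 6759, 6268 and 4926 CPM in control SF3, SF4 and SF5_6, and 6461, 6398 and 4979 CPM in SmadNes. Ligands reached 2350, 2288 and 2072 CPM in the controls, and 2166, 2163 and 1991 CPM in SmadNes. The receptor sum of both SF5_6 libraries lay below that of the other 4, and so did the ligand sum. These sums weight the most abundant genes and the longest transcripts most.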
